A study of Homo sapiens with 6 samples.

Results

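The unfolded protein response of the endoplasmic reticulum (ER) was followed through 10 genes: HSPA5, XBP1, DNAJB9, HSP90B1, CALR, PDIA4, SDF2L1, HERPUD1, MANF and CRELD2. They were taken by symbol from the 36601 genes of the deposited count tables, with earlier results of these data known. All 10 were found and passed the filter on low counts. SK-N-BE(2)-C cells, a human neuroblastoma line in long use, were profiled by Seq-Well S3, in which single cells are caught with barcoded beads in small wells. Of the 6 libraries, 2 came from cells given DMSO (the solvent), 2 from cells given TSA (the usual abbreviation of trichostatin A, which inhibits the catalytic activity of histone deacetylases, HDACs) and 2 from cells given E6R, which belongs to a study on inhibiting the HDAC complex by a non-enzymatic route. No source used here gives the doses, the times of treatment or what kind of molecule E6R is, and the labels do not say whether the replicates were separate cultures, so p-values measure only the spread between these libraries.

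The ER folds proteins that enter the secretory pathway. When unfolded proteins build up in it, the sensors IRE1 (gene ERN1), PERK (gene EIF2AK3) and ATF6 are activated; ATF6 is cleaved to a transcription factor, IRE1 splices XBP1 mRNA so that it encodes an active transcription factor, and PERK slows translation and favours that of ATF4. ATF6 and spliced XBP1 raise the transcription of ER chaperones, of folding enzymes and of the machinery that returns misfolded proteins to the cytosol for degradation, partly through the ER stress response element (ERSE), which joins a CCAAT box, bound by NF-Y, to a CCACG sequence at a fixed spacing. The UMI counts give the amount of XBP1 RNA and cannot tell spliced from unspliced molecules.

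The promoter sequences of these genes were read as a description. The genes were listed for a response that acts partly through the ERSE, so matches are not independent of that choice. The exact ERSE (CCAAT, any 9 bases, CCACG, searched on both strands of the RefSeq window from 250 bases before to 50 bases after the start, build GRCh38.p14) was present in 5 of the 10 genes, CALR, CRELD2, HSP90B1, HSPA5 and XBP1, against 25 of 27305 genes with a promoter in the table (0.0916%). A related element, ERSE-II (ATTGG, any 1 base, CCACG), was present in HERPUD1 and SDF2L1, against 19 genes of all (0.0696%). The 8 sites are shown in the orientation of the motif with its letters in capitals and 5 flanking bases on each side, so that the fixed ends and the free spacer can be compared.
HSPA5, chr9:125241386-125241414: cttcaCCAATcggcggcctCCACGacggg
XBP1, chr22:28800598-28800626: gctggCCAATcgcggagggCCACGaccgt
HSP90B1, chr12:103930211-103930239: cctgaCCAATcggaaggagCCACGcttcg
HSP90B1, chr12:103930316-103930344: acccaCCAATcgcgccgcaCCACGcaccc
CALR, chr19:12938379-12938407: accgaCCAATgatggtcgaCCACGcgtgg
CRELD2, chr22:49918549-49918577: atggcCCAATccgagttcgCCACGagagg
HERPUD1, chr16:56932020-56932040: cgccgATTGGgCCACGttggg
SDF2L1, chr22:21642109-21642129: ttttgATTGGtCCACGcttcc
All 8 lay before the start. The HSPA5 and XBP1 elements and the first of the 2 in HSP90B1 read along the gene's own strand, as did the ERSE-II of HERPUD1, and those of CALR, CRELD2 and SDF2L1 and the second of HSP90B1 read along the other strand. No exact match of either element was found for DNAJB9, PDIA4 or MANF in these windows. When 1 of the 10 fixed letters of the ERSE could differ, 7 of the 10 genes had a match before the start, with HERPUD1 and SDF2L1 added, against 456 of 27305 genes (1.67%). TGACGTGG, the core of another element that XBP1 and ATF6 can bind, was present in 0 of the 10 and in 253 of all genes (0.9266%). A match is a description of letters and not evidence of binding.

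HSPA5 is shown with its whole upstream window because it was the reference for the search of similar genes described further on. The 250 bases before its RefSeq start (chr9:125241344-125241593, GRCh38.p14, minus strand, 62% G or C) read as follows, with the fixed letters of the exact ERSE in capitals.
HSPA5 upstream: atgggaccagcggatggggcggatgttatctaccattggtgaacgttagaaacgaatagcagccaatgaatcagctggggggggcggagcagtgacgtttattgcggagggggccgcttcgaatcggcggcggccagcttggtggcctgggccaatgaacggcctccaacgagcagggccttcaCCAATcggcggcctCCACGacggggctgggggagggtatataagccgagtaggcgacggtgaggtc
The exact ERSE spans bases -66 to -48 from the start.

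By GENCODE 29 on GRCh38, HSPA5 lies on chromosome 9 (125234853 to 125241330, minus strand), XBP1 on chromosome 22 (28794555 to 28800597, minus), HSP90B1 on chromosome 12 (103930107 to 103953645, plus), CALR on chromosome 19 (12938578 to 12944489, plus) and PDIA4 on chromosome 7 (149003062 to 149028641, minus). DNAJB9 lies on chromosome 7 (108569568 to 108574850, plus), SDF2L1 on chromosome 22 (21642261 to 21644298, plus), HERPUD1 on chromosome 16 (56932048 to 56944863, plus), MANF on chromosome 3 (51385047 to 51389397, plus) and CRELD2 on chromosome 22 (49918167 to 49927540, plus). Each is a protein-coding gene. HSPA5 apart, each annotated gene begins upstream of the RefSeq start used for its promoter, and for HSP90B1, CRELD2 and DNAJB9 all 250 bases before that start lie inside the annotated gene. A gene on the other strand overlaps DNAJB9 (PNPLA8 and THAP5), HSP90B1 (TTC41P and C12orf73), CALR (AC092069.1) and CRELD2 (ALG12); the strand setting of the counting was not given, so reads of such pairs cannot be told apart.

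Barcodes with at least 500 genes and at most 20% mitochondrial UMIs were kept as cells, 17589 in all. The DMSO libraries had 1861 and 3132 cells (replicates 1 and 2), the TSA libraries 2467 and 3292, and the E6R libraries 2891 and 3946. Their UMIs summed to between 4206366 (DMSO replicate 1) and 26180262 (E6R replicate 2). Genes of the adrenergic neuroblastoma state were found in every library (HAND2 between 220 and 306 counts per 1000000 UMIs, CPM, by plain totals), and 3 of the 12 were called lower in TSA than in DMSO. The 14 markers of other cell types summed, on the TMM-scaled CPM described in the next paragraph, to 136 and 45.7 CPM in DMSO, 144 and 93.0 CPM in TSA and 293 and 33.6 CPM in E6R, a range that the replicates of a group span, with PTPRC, CD3E, LYZ, KRT5, HBB and ALB at 0 in at least 1 library. Mitochondrial genes took 5.83% and 6.20% of UMIs in DMSO, 6.08% and 9.71% in TSA, and 1.55% and 1.51% in E6R. The top 1% of cells held 22.5% of the UMIs in E6R replicate 2, against 8.77% to 15.6% in the others; the deposited name of TSA replicate 2 carries a tag, reWTA, whose meaning was not given; and 102 barcodes occurred in more than 1 library.

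Levels are given from here on as CPM with library sizes scaled by TMM (trimmed mean of M values), from UMI sums over the cells of each library, in the order replicate 1 and replicate 2. A gene was called when edgeR's quasi-likelihood test, fitted over all 16763 genes that passed the low-count filter, gave a Benjamini-Hochberg adjusted p under 0.05. In such sums, a change in a few cells and a smaller change in all cells cannot be told apart; values per cell follow the comparisons.

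TSA raised the major ER chaperones and folding enzymes and lowered XBP1. HSPA5, HSP90B1, CALR, PDIA4 and CRELD2 rose and XBP1 fell, while DNAJB9, SDF2L1, HERPUD1 and MANF did not pass the test. The 5 genes called higher compare with 16.2% of all genes tested, and the 1 called lower, with 13.5%; a single lower call among 10 is close to that background. The median log2 fold change of the 10 was 0.46, against -0.01 over all genes tested. Together the 10 genes held 0.354% and 0.349% of all UMIs in DMSO and 0.802% and 0.709% in TSA. Most of these UMIs came from HSPA5, HSP90B1, CALR and PDIA4. They held 23.3%, 41.9%, 16.1% and 7.27% of them in DMSO replicate 1, and 26.25%, 34.8%, 26.6% and 7.96% in TSA replicate 1. The sum therefore mainly follows these genes and does not describe each of the 10.

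**Figure D1:**
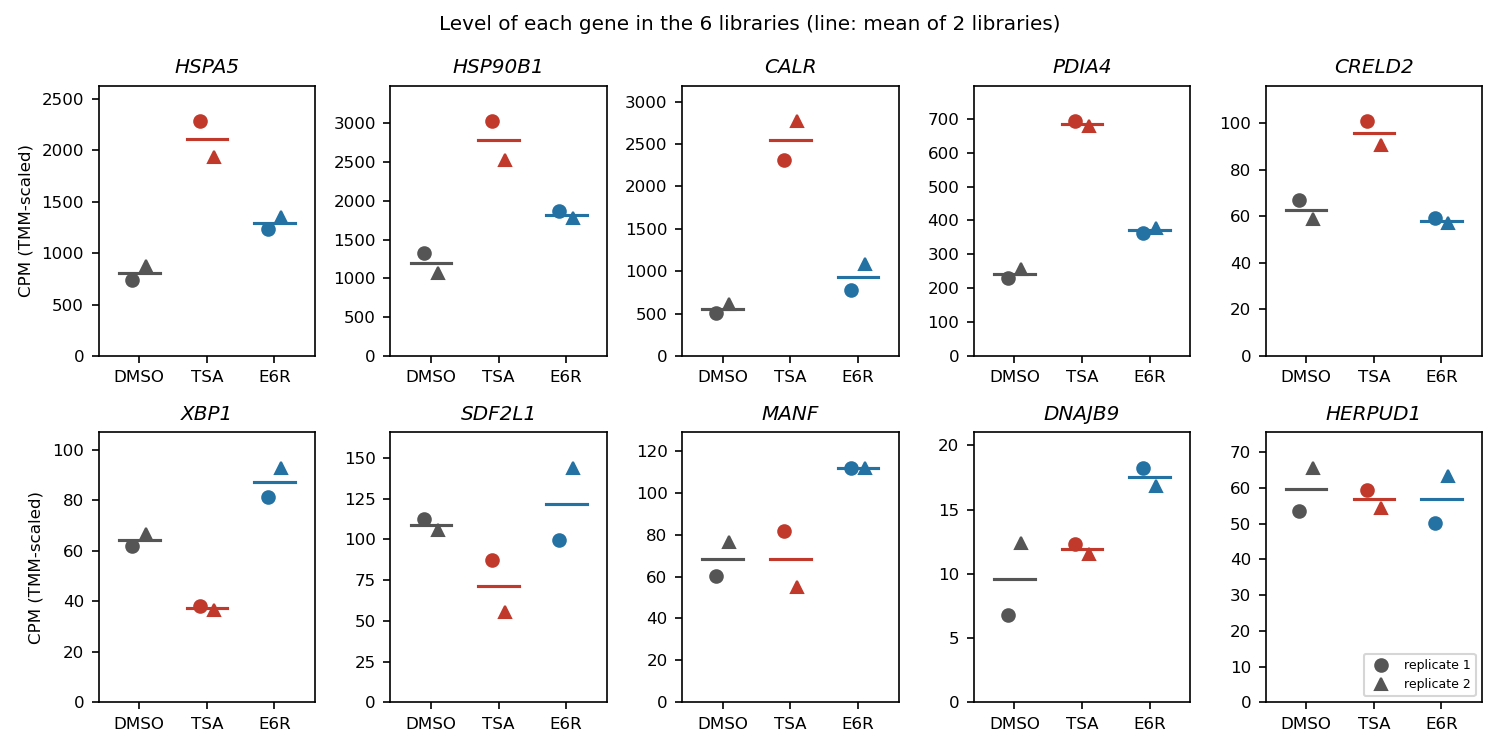
Level of each of the 10 genes in the 6 libraries, 1 panel per gene, as TMM-scaled CPM on axes that start at 0; circles are replicate 1, triangles replicate 2 and lines the mean of the 2 libraries of DMSO (grey), TSA (red) and E6R (blue). HSPA5, HSP90B1, CALR and PDIA4 are highest in TSA with E6R between, whereas XBP1 is lowest in TSA (36.5 and 38.1 CPM) and highest in E6R.

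HSPA5 encodes BiP, the Hsp70 chaperone of the ER, which also holds the sensors inactive. Its level was 736 and 879 CPM in DMSO and 2284 and 1935 CPM in TSA. Both TSA libraries lay above both DMSO libraries, a rise of 1.39 on the log2 scale (SE 0.21, 2.61-fold, adjusted p = 0.00373).

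HSP90B1 encodes GRP94, the Hsp90 chaperone of the ER. It stood at 1327 and 1073 CPM in DMSO and at 3029 and 2534 CPM in TSA, 2.32-fold higher (log2 1.21, SE 0.22, adjusted p = 0.00648). The groups did not overlap, but the call rested on single libraries: it was lost without DMSO replicate 2 (adjusted p = 0.0524) and without TSA replicate 1 (adjusted p = 0.0509).

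CALR encodes calreticulin, a calcium-binding lectin that retains glycoproteins for folding, and it had the highest fold change of the 10. Its level was 508 and 608 CPM in DMSO and 2316 and 2771 CPM in TSA. The groups lay far apart relative to their spread, with a rise of 2.19 on the log2 scale (SE 0.25, 4.56-fold, adjusted p = 0.00145). CALR took 16.1% and 19.0% of the UMIs of the 10 genes in DMSO and 26.6% and 33.7% in TSA, a measure that does not depend on how libraries are scaled.

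PDIA4 encodes ERp72, a protein disulfide isomerase. It was at 230 and 255 CPM in DMSO and at 693 and 679 CPM in TSA. The replicates were close together in both groups, and the rise was 2.83-fold (log2 1.5, SE 0.19, adjusted p = 0.00187).

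CRELD2 encodes a secreted, ER stress-inducible protein with disulfide isomerase activity. It was at 67.1 and 58.7 CPM in DMSO and at 101 and 90.8 CPM in TSA, 1.52-fold higher (log2 0.61, SE 0.19, adjusted p = 0.0417). This call had the largest adjusted p of the 6 and was lost in 10 of the 17 alternatives. It ended without DMSO replicate 1 (adjusted p = 0.0888), DMSO replicate 2 (0.264), TSA replicate 1 (0.200) or TSA replicate 2 (0.123), and with libraries scaled by total UMIs (log2 0.30, adjusted p = 0.289).

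XBP1 encodes the transcription factor whose RNA is spliced by IRE1. It was at 62.0 and 66.6 CPM in DMSO and at 38.1 and 36.5 CPM in TSA. XBP1 was 1.72-fold lower in TSA (log2 -0.79, SE 0.19, adjusted p = 0.0174), so the RNA of this regulator moved opposite to the 5 genes that rose. Of the UMIs of the 10 genes, XBP1 took 1.96% and 2.08% in DMSO and 0.438% and 0.444% in TSA. Such a share also falls when other genes of the 10 rise. That of HERPUD1, which was not called, went from 1.69% and 2.05% in DMSO to 0.683% and 0.661% in TSA. The call was lost when any 1 of the DMSO or TSA libraries was left out (adjusted p = 0.0670 and 0.0684 without DMSO replicates 1 and 2, and 0.107 and 0.140 without TSA replicates 1 and 2), at log2 fold changes between -0.81 and -0.71.

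DNAJB9 encodes ERdj4, a J-domain co-chaperone of BiP. It was found at 6.80 and 12.4 CPM in DMSO and at 12.3 and 11.6 CPM in TSA, with overlapping groups (log2 0.31, SE 0.34, adjusted p = 0.521). SDF2L1, whose product joins BiP and ERdj3 in a chaperone complex, was at 113 and 106 CPM in DMSO and at 87.4 and 55.2 CPM in TSA. Both TSA libraries were below both DMSO libraries, but the TSA libraries differed widely and the test was not passed (log2 -0.61, SE 0.28, adjusted p = 0.129).

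HERPUD1 encodes Herp, a membrane protein of the ER-associated degradation complex. It was at 53.5 and 65.6 CPM in DMSO and at 59.4 and 54.3 CPM in TSA (log2 -0.07, 95% interval -0.56 to 0.43, adjusted p = 0.833). MANF encodes a secreted protein of the ER that binds BiP. It was at 60.3 and 76.5 CPM in DMSO and at 81.7 and 54.9 CPM in TSA (log2 -0.0018, 95% interval -0.56 to 0.55, adjusted p = 0.997). For both genes the groups overlapped.

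The scale matters for this comparison. With libraries scaled by total UMIs, the median of all genes moved from -0.01 to -0.32, and the calls over all genes went from 2720 higher and 2255 lower to 1717 higher and 3361 lower. On that scale 4 of the 10 genes were called higher and 2 lower: CRELD2 dropped out and SDF2L1 was called lower (log2 -0.91, adjusted p = 0.0498). HSPA5, CALR and PDIA4 were called in each of the 17 alternatives run, with log2 fold changes of 1.08 to 1.54, 1.87 to 2.34 and 1.19 to 1.55.

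**Figure D2:**
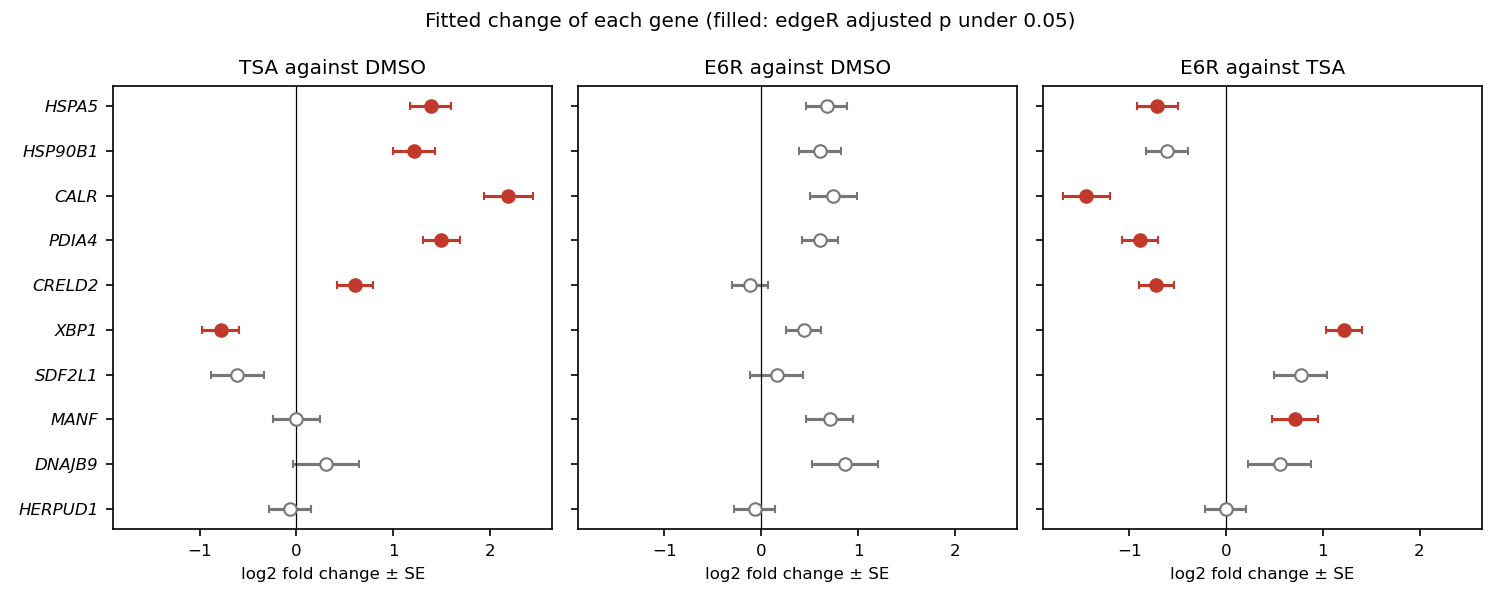
Fitted log2 fold change (x axis, with bars of 1 SE) of the 10 genes (y axis) in the 3 comparisons; filled red points passed an edgeR adjusted p of 0.05 and open grey points did not. In TSA against DMSO, 5 points are filled to the right and XBP1 to the left; in E6R against DMSO none is filled and 8 of 10 lie to the right; in E6R against TSA, XBP1 and MANF are filled to the right and HSPA5, CALR, PDIA4 and CRELD2 to the left.

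In E6R against DMSO none of the 10 genes was called. No gene at all passed, 0% of the 16763 tested by edgeR, while 2913 had an unadjusted p under 0.05. Of the 10 genes, 7 had such a p, each with the higher level in E6R (HSPA5, XBP1, DNAJB9, HSP90B1, CALR, PDIA4 and MANF), against 8.04% of all genes tested. For the same 7, both E6R libraries lay above both DMSO libraries, against 24.6% of all genes; for 0 of the 10 did both lie below, against 22.7%. The median log2 fold change of the 10 was 0.61, against 0.03 over all genes tested.

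Among the chaperones, HSPA5 was at 1231 and 1349 CPM in E6R, 1.60-fold the DMSO level (log2 0.68, SE 0.21, adjusted p = 0.217). HSP90B1 was at 1864 and 1784 CPM (log2 0.60, SE 0.22, adjusted p = 0.234), and PDIA4 at 364 and 377 CPM (log2 0.61, SE 0.19, adjusted p = 0.215). CALR was at 784 and 1084 CPM in E6R, with the 2 libraries apart from each other and above both DMSO libraries (log2 0.74, SE 0.24, adjusted p = 0.218). The fitted differences of these 4 genes lay between 1.52-fold and 1.67-fold.

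XBP1 was at 81.3 and 92.8 CPM in E6R, above the DMSO libraries (log2 0.44, SE 0.18, adjusted p = 0.278). MANF was at 112 CPM in both E6R libraries (log2 0.71, SE 0.24, adjusted p = 0.224), and DNAJB9 at 18.3 and 16.9 CPM (log2 0.86, SE 0.34, adjusted p = 0.255). In each of these 3 genes the 2 E6R libraries were the highest of the 6.

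SDF2L1 was at 99.8 and 144 CPM in E6R (log2 0.16, adjusted p = 0.794), HERPUD1 at 50.2 and 63.3 CPM (log2 -0.07, adjusted p = 0.891) and CRELD2 at 59.4 and 57.0 CPM (log2 -0.11, adjusted p = 0.787). All 3 overlapped DMSO. The 10 genes together held 0.468% and 0.516% of all UMIs in E6R.

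Other tools called a few of these genes: DESeq2 called HSPA5 (adjusted p = 0.0471) and PDIA4 (0.0379) among 338 genes, and edgeR without the low-count filter called HSPA5 (0.0307), CALR (0.0178) and MANF (0.0280) among 1095 genes. The mitochondrial share was also lowest in E6R; with the mitochondrial genes left out, an alternative chosen after the data were seen, the log2 fold changes were 0.68 for HSPA5, 0.61 for HSP90B1, 0.75 for CALR, 0.62 for PDIA4 and 0.72 for MANF, and none was called.

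The 2 treatments were then compared directly. In E6R against TSA, XBP1 and MANF were called higher and HSPA5, CALR, PDIA4 and CRELD2 lower. The 2 higher calls among 10 are near the share over all genes, 18.7%, and the 4 lower calls compare with 19.5%. This comparison and the ones against DMSO share libraries.

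XBP1, at 81.3 and 92.8 CPM in E6R and 38.1 and 36.5 CPM in TSA, was 2.33-fold higher in E6R (log2 1.22, SE 0.19, adjusted p = 0.00224). MANF was 1.64-fold higher (log2 0.71, SE 0.24, adjusted p = 0.0475). CALR was 2.72-fold lower in E6R than in TSA (log2 -1.45, SE 0.24, adjusted p = 0.00336), PDIA4 1.85-fold lower (log2 -0.89, SE 0.19, adjusted p = 0.00776), CRELD2 1.65-fold lower (log2 -0.72, SE 0.18, adjusted p = 0.0172) and HSPA5 1.64-fold lower (log2 -0.71, SE 0.21, adjusted p = 0.0313). XBP1 and CALR were called in each of the 17 alternatives, whereas HSPA5, MANF and CRELD2 were lost in 8, 8 and 7 of them.

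The other 4 genes did not pass. The fitted log2 value was -0.61 for HSP90B1 (SE 0.22, adjusted p = 0.0582), 0.77 for SDF2L1 (adjusted p = 0.0569), 0.55 for DNAJB9 (adjusted p = 0.214) and -0.0021 for HERPUD1 (95% interval -0.49 to 0.48, adjusted p = 0.995). Single libraries decided several of these calls: PDIA4 was lost without TSA replicate 1 (adjusted p = 0.0536) or TSA replicate 2 (0.0535), HSPA5 without any 1 of the 6 libraries (0.0513 to 0.178), MANF without TSA replicate 2 (0.302), E6R replicate 1 (0.0540) or E6R replicate 2 (0.0710), and CRELD2 without any library other than DMSO replicate 1 (0.0566 to 0.123). Of the genes that did not pass, SDF2L1 was called in 8 of the 17 alternatives, among them those without TSA replicate 1 (0.0481) or E6R replicate 1 (0.0150), and HSP90B1 in 3.

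Upstream of these genes, the RNAs of the 3 sensors rose under TSA, ATF6 the least firmly. ERN1, which encodes IRE1, was at 5.52 and 5.74 CPM in DMSO and at 20.4 and 22.1 CPM in TSA (log2 1.91, SE 0.31, adjusted p = 0.00450). EIF2AK3, which encodes PERK, was at 5.95 and 10.3 CPM in DMSO and at 21.6 and 29.5 CPM in TSA (log2 1.64, SE 0.40, adjusted p = 0.0182). ATF6 was at 109 and 118 CPM in DMSO and at 177 and 172 CPM in TSA (log2 0.62, SE 0.18, adjusted p = 0.0337). The ATF6 call ended in 12 of the 17 alternatives, among them total UMI scaling (log2 0.31, adjusted p = 0.238) and leaving out any 1 DMSO or TSA library (up to 0.144); EIF2AK3 was lost without DMSO replicate 1, TSA replicate 1 or TSA replicate 2 (up to 0.127), and ERN1 without TSA replicate 2 (0.0518). None of the 3 overlapped between the groups. In E6R the levels were 4.30 and 3.54 CPM for ERN1, 13.1 and 7.94 CPM for EIF2AK3, and 151 CPM in both libraries for ATF6, without a call against DMSO (adjusted p = 0.416, 0.665 and 0.284). Against TSA, ERN1 and EIF2AK3 were lower in E6R (adjusted p = 0.00111 and 0.0294; the latter call was lost without TSA replicate 1, TSA replicate 2 or E6R replicate 2, at up to 0.212).

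The median log2 fold change of the 11 sensors and cooperating factors was 0.62 in TSA against DMSO. Of them, 6 were called higher and 0 lower (4 and 2 with total UMI scaling), against 16.2% and 13.5% of all genes. Beyond the sensors, the genes called higher included NFYA, a subunit of the CCAAT-binding factor NF-Y. It was at 19.8 and 18.2 CPM in DMSO and 42.2 and 56.2 CPM in TSA (log2 1.38, adjusted p = 0.0147). The subunits NFYB (18.4 to 21.6 CPM in the group means, adjusted p = 0.451) and NFYC (20.8 to 11.7 CPM, 0.0574) were not called. CREB3, a membrane-bound transcription factor related to ATF6 in its mode of activation, was called higher (47.0 to 93.9 CPM in the group means, adjusted p = 0.0109). NFYA was lost without DMSO replicate 1, DMSO replicate 2 or TSA replicate 2 (up to 0.109), and CREB3 without either DMSO library or TSA replicate 1 (up to 0.0892). Under E6R, 0 of the 11 were called against DMSO, where 0% of all genes were. The smallest adjusted p belonged to NFYB, another NF-Y subunit, at 18.4 CPM in DMSO and 30.8 CPM in E6R (means, adjusted p = 0.211).

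Under TSA some genes of the PERK branch were called. ATF4, its main transcription factor, was at 392.2 and 186 CPM in DMSO, 260 and 193 CPM in TSA and 315 and 213 CPM in E6R, with replicates of each group far apart (adjusted p = 0.495 for TSA and 0.879 for E6R). DDIT3, which encodes CHOP, was at 11.0 and 21.6 CPM in DMSO and 25.1 and 18.5 CPM in TSA (adjusted p = 0.431), and at 12.6 and 18.2 CPM in E6R (adjusted p = 0.923). Of the 12 genes of this branch, 4 were called higher and 1 lower in TSA, against 16.2% and 13.5% of all genes. The single lower call is not above that share. The median log2 fold change was 0.21, and -0.10 with total UMI scaling. SESN2, a stress-induced inhibitor of mTORC1, rose from 18.7 to 47.2 CPM (means, adjusted p = 0.00665), DDIT4, another such inhibitor, from 19.1 to 65.8 CPM (adjusted p = 0.00799), and PPP1R15A, which encodes GADD34 and restores translation, from 23.6 to 51.3 CPM (adjusted p = 0.0472). PPP1R15A was no longer called in 8 of the 17 alternatives, total UMI scaling among them (0.122), and when a single library was left out it reached up to 0.246 (DMSO replicate 2, TSA replicate 1 or TSA replicate 2); SESN2 was lost without either TSA library (up to 0.0526) and DDIT4 without DMSO replicate 2 or TSA replicate 2 (up to 0.0695). Each of these 3 is also known to respond to stresses outside the ER. In E6R, 0 of the 12 were called against DMSO (0% of all genes), and SESN2 had the smallest adjusted p, at a mean of 12.4 CPM (0.272).

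The remaining folding machinery of the ER (21 genes) had 9 genes called higher and 2 lower in TSA, against 16.2% and 13.5% of all genes. Its median on the log2 scale was 0.53. With total UMI scaling the counts were 5 and 2 and the median 0.22. HYOU1, an ER exchange factor for BiP, was at 132 and 259 CPM in DMSO and 575 and 724 CPM in TSA (log2 1.73, SE 0.32, adjusted p = 0.00688). DNAJB11, the co-chaperone ERdj3, was at 140 and 160 CPM in DMSO and 406 and 413 CPM in TSA (log2 1.45, SE 0.19, adjusted p = 0.00208), and UGGT1, the folding sensor of the calreticulin cycle, rose from 74.9 to 161 CPM (means, adjusted p = 0.00820). DNAJB11 was called in each of the 17 alternatives, HYOU1 was lost without TSA replicate 2 (0.0530), and UGGT1 without DMSO replicate 2 or TSA replicate 2 (up to 0.0725). In E6R, 0 of 21 were called against DMSO (0% of all genes). PDIA3, the disulfide isomerase that works with calreticulin, had the smallest adjusted p, with 325 and 333 CPM in DMSO and 621 and 589 CPM in E6R (log2 0.88, adjusted p = 0.205). Against TSA, E6R was lower in DNAJB11 (2.11-fold, adjusted p = 0.00352) and in the disulfide isomerase P4HB (2.05-fold, 0.00602), and higher in the oxidase ERO1A (1.99-fold, 0.00797). P4HB was lost without TSA replicate 1 (0.0518) and ERO1A without either TSA library (up to 0.0820).

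**Figure D3:**
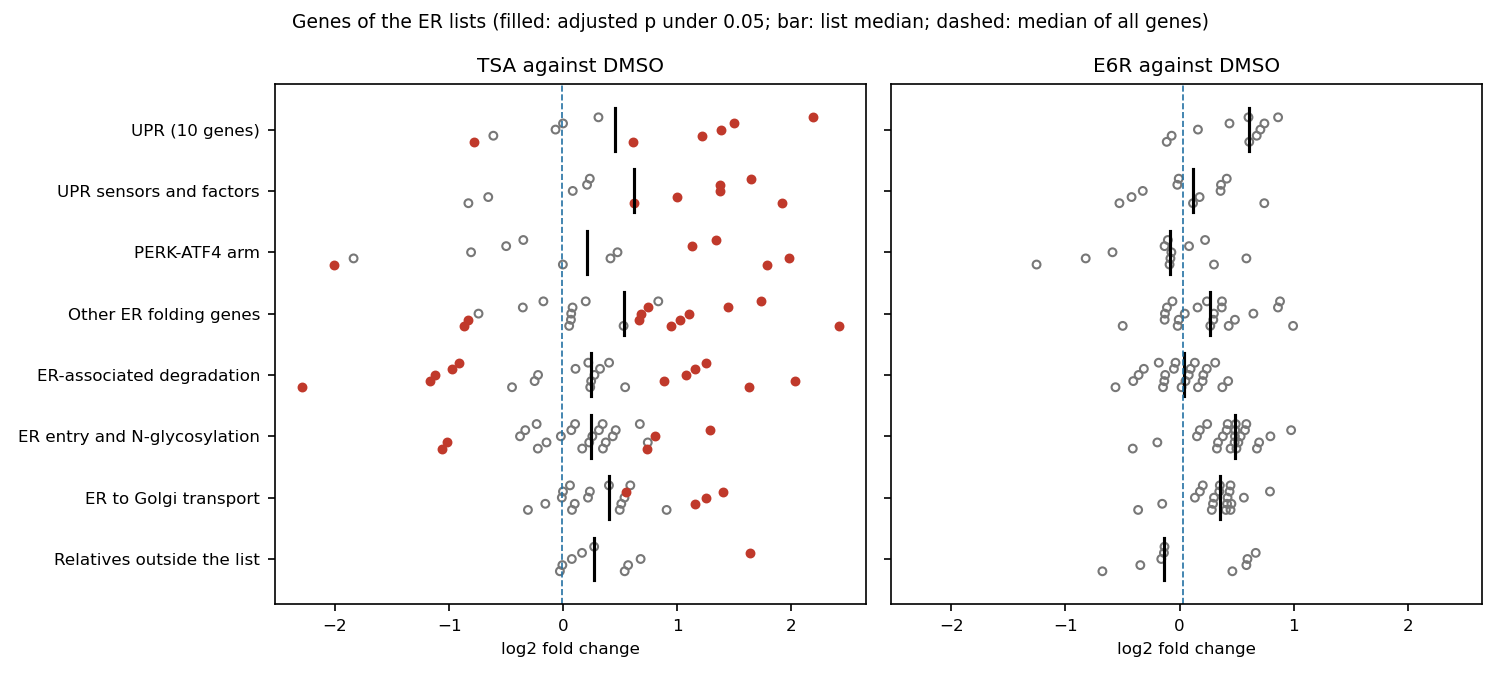
Fitted log2 fold changes (x axis) of single genes for TSA and E6R against DMSO. Rows are the ER lists and the list of relatives outside the unfolded protein response set. Filled points passed an adjusted p of 0.05, black bars are list medians and the dashed line is the median of all genes tested. In TSA each list holds both filled and open points and the degradation list has filled points on both sides (6 higher, 5 lower); in E6R no point is filled.

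Of 22 tested genes of ER-associated degradation, 6 were called higher and 5 lower in TSA, where calls over all genes also went both ways (16.2% and 13.5%), with a median log2 fold change of 0.24 (-0.07 with total UMI scaling). UBE2J1, a ubiquitin-conjugating enzyme of the ER membrane, fell from 70.3 and 63.1 CPM to 14.1 and 13.1 CPM (log2 -2.29, SE 0.20, adjusted p = 0.000727). UFD1, a cofactor of the extraction ATPase VCP, rose from 133 to 318 CPM (means, adjusted p = 0.00441) and OS9, a lectin that selects glycoproteins for degradation, from 164 to 345 CPM (adjusted p = 0.00492). These 3 calls held in each of the 17 alternatives. In E6R UBE2J1 was at 88.6 and 84.4 CPM, 6.36-fold above TSA (adjusted p = 0.000272), and 0 of 22 genes were called against DMSO (0% of all genes).

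Of 24 genes of ER entry and N-glycosylation, 3 were called higher and 2 lower in TSA, shares no larger than the 16.2% and 13.5% of all genes (1 and 2 with total UMI scaling, where the list median turned from 0.24 to -0.06). DAD1, a subunit of the oligosaccharyltransferase, rose from 158 to 386 CPM (means, adjusted p = 0.00357), while SPCS2, of the signal peptidase, fell from 171 to 81.6 CPM (adjusted p = 0.0137) and SRPRB, of the signal recognition particle receptor, from 231 to 114 CPM (adjusted p = 0.0262). DAD1 was called in each alternative, and SPCS2 and SRPRB were lost without DMSO replicate 2, TSA replicate 1 or TSA replicate 2 (up to 0.125 and 0.192). In E6R 0 of the 24 were called against DMSO (0% of all genes). Of the 24, 15 had both E6R libraries above both DMSO libraries (24.6% of all genes did), and the list median was 0.48. SSR3, of the translocon-associated complex, had the smallest adjusted p, at 225 and 226 CPM in DMSO and 442 and 446 CPM in E6R (log2 0.98, adjusted p = 0.205).

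Of 19 genes of ER to Golgi transport, 4 were called higher, near the 16.2% of all genes, and 0 lower in TSA, against 13.5%. The cargo receptor TMED2 rose from 118 to 280 CPM (means, adjusted p = 0.00293), the SNARE SEC22B from 69.4 to 183 CPM (adjusted p = 0.00438) and the COPII GTPase SAR1A from 156 to 347 CPM (adjusted p = 0.00746, lost without DMSO replicate 2 or TSA replicate 1, up to 0.0591). In E6R 0 of 19 were called against DMSO, where 0% of all genes were. Of the 19, 12 had both E6R libraries above both DMSO libraries (24.6% of all genes did) and 1 had both below (22.7% of all genes). The list median was 0.35. Among 9 relatives of the 10 genes that work outside this set, 1 was called higher in TSA, no more than the share over all genes: HSPA8, the constitutive cytosolic Hsp70, was at 1233 and 1253 CPM in DMSO and 3601 and 4138 CPM in TSA (log2 1.64, adjusted p = 0.00185).

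The same lists were counted in E6R against TSA, where 18.7% of all genes were called higher and 19.5% lower. Among the sensors and factors, 1 of 11 was called higher and 4 lower, with CREB3 2.50-fold lower (adjusted p = 0.00245) and NFYA 2.39-fold lower (0.0139, lost without TSA replicate 2, 0.123). In the PERK branch 1 of 12 was called higher, TRIB3 by 4.71-fold (0.00599), and 3 lower, with SESN2 3.79-fold lower (0.00112) and DDIT4 3.64-fold lower (0.00422). Of the degradation genes 5 of 22 were called higher and 5 lower; OS9 was 2.33-fold lower (0.00197) and NPLOC4, which pairs with UFD1, 2.72-fold lower (0.00229).

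Of the ER entry genes, 6 of 24 were called higher in E6R than in TSA, near the share over all genes, and 1 lower. SPCS2 was 2.94-fold higher (adjusted p = 0.00231), SRPRB 2.30-fold (0.0109) and SEC11A, the catalytic subunit of the signal peptidase, 1.88-fold (0.0129); SRPRB and SEC11A were lost without TSA replicate 2 (0.0997 and 0.114). Of the transport genes 0 of 19 were called higher and 3 lower: SEC22B 1.94-fold (0.0119), SAR1A 1.82-fold (0.0158) and TMED2 1.78-fold (0.00872). All 3 were lost without TSA replicate 1, SEC22B and SAR1A also without E6R replicate 2, and SEC22B also without TSA replicate 2 (up to 0.0886 for SEC22B, 0.130 for SAR1A and 0.0705 for TMED2). Among the relatives outside the set, 0 of 9 were called higher and 2 lower, HSPA8 by 2.26-fold (0.00357) and HSP90AA1, the inducible cytosolic Hsp90, by 2.03-fold (0.0175; lost without TSA replicate 1, TSA replicate 2 or E6R replicate 1, up to 0.103).

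The pattern of HSPA5 over the 6 libraries was compared with that of the 7514 other tested genes with a mean of at least 20 CPM, by the root mean square difference of log2 CPM centred on each gene's mean. The closest 5 were ERCC6L (0.087), PDIA4 (0.104), FANCM (0.108), CYB5B (0.116) and CDKN2AIP (0.117). HSP90B1 came at place 54, CRELD2 at 1278, CALR at 1386, HERPUD1 at 3416, MANF at 4210, SDF2L1 at 5599 and XBP1 at 6042; DNAJB9 lay under the level limit. PDIA4 was thus the only one of the other 9 among the closest 5.

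Cells with at least 1 UMI of a gene were counted next, with each cell thinned to 1000 UMIs because depth differed; cells under 1000 UMIs were left out there (674 and 1450 in DMSO, 615 and 503 in TSA, 692 and 1718 in E6R). CALR was found in 40.5% and 47.6% of DMSO cells, 83.3% and 88.1% of TSA cells and 50.5% and 60.9% of E6R cells. For HSPA5 the shares were 51.4% and 58.6%, 80.1% and 74.9%, and 64.9% and 65.8% in the same order, with exact 95% binomial intervals of 48.5% to 54.3% in DMSO replicate 1 and 78.2% to 81.9% in TSA replicate 1, which cover counting error only. PDIA4 was found in 19.7% and 23.0% of DMSO cells, 41.0% and 41.5% of TSA cells and 29.6% and 31.3% of E6R cells. XBP1 was found in 6.32% and 6.06% of DMSO cells, 2.86% and 2.65% of TSA cells and 7.73% and 9.20% of E6R cells. The order of the groups in these 4 genes was that of the CPM. Mean shares of HSP90B1, DNAJB9, SDF2L1, MANF and CRELD2 also kept the order of mean CPM, and those of HERPUD1 did not. Some of these orders rest on near ties. SDF2L1 was found in 10.7% of both DMSO and E6R cells, and DNAJB9 in 0.93% of DMSO and 0.97% of TSA cells (means). HERPUD1 was found in 6.19% of DMSO, 4.85% of TSA and 5.15% of E6R cells (means). In these thinned counts both treatments lay below both DMSO libraries, although its CPM overlapped. The 95% binomial intervals of HERPUD1 in DMSO replicate 1 (4.63% to 7.39%) and E6R replicate 1 (4.25% to 6.15%) overlapped. CRELD2 was found in 6.64%, 7.82% and 5.51% (means, same order), with TSA overlapping DMSO and both E6R libraries below it.

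Without thinning the picture differed for the less frequent genes. XBP1 was then found in 12.1% and 9.83% of DMSO cells, 14.5% and 9.72% of TSA cells and 26.0% and 22.7% of E6R cells, so the lower share in TSA appeared only in the thinned counts, which also leave out the cells under 1000 UMIs. HERPUD1 was found unthinned in 10.1% of DMSO, 16.3% of TSA and 17.1% of E6R cells (means), and CRELD2 in 10.8%, 23.7% and 18.1%. For both genes each treatment lay above both DMSO libraries. The lower thinned shares of HERPUD1 in both treatments and of CRELD2 in E6R were thus reversed. The unthinned shares were 59.8% and 62.7% for HSPA5 and 51.3% and 52.8% for CALR in DMSO, 89.1% and 87.6% and then 90.4% and 93.9% in TSA, and 79.2% and 72.4% and then 71.4% and 71.3% in E6R. With 2 libraries against 2, an exact two-sided permutation test of a share cannot go below p = 0.33. No cell type that lacks these genes was present to measure the background from free RNA.

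Summed over the 10 genes, a cell thinned to 1000 UMIs held a mean of 3.44 and 3.46 UMIs in DMSO, 7.81 and 6.95 in TSA and 4.56 and 5.10 in E6R, with medians of 3, 7 and 4 or 5. In the library sums most UMIs of the 10 genes came from HSPA5, HSP90B1, CALR and PDIA4, so these values mainly follow those genes. Cells without any such UMI made up 6.23% and 5.17% in DMSO, 0.378% and 0.538% in TSA and 2.77% and 2.47% in E6R. A small tail differed between the TSA replicates: cells with 20 or more of these UMIs numbered 42 of 1852 (2.27%) in TSA replicate 1 and 10 of 2789 (0.359%) in TSA replicate 2, against 0 of 1187 and 2 of 1682 in DMSO and 5 of 2199 and 9 of 2228 in E6R. The highest cell, in TSA replicate 1, had 56 of its 1000 UMIs from the 10 genes, with 28 from HSPA5 and 19 from HSP90B1.

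**Figure D4:**
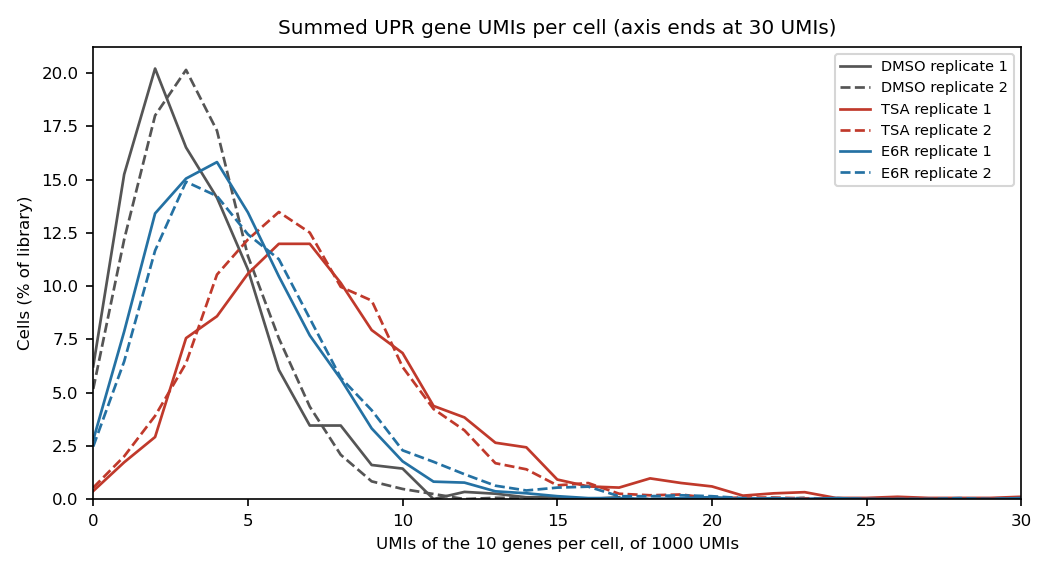
Cells of each library (y axis, %) by the number of UMIs of the 10 genes among 1000 UMIs per cell (x axis, shown to 30); solid lines are replicate 1 and dashed lines replicate 2 of DMSO (grey), TSA (red) and E6R (blue). Both TSA curves peak to the right of both DMSO curves (means 7.81 and 6.95 against 3.44 and 3.46 UMIs), with the E6R curves between (4.56 and 5.10).

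Within each library, correlations between the genes over thinned cells were weak. Over the 45 pairs of genes, the median correlation of thinned counts lay between 0.0016 and 0.028 in the 6 libraries, which is a description of sparse counts and no finding. The highest pair in each library was HSPA5 with HSP90B1, at 0.109 to 0.342.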

How the data were processed

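The authors deposited, for each of the 6 libraries, a matrix of whole-number UMI counts per gene and barcode, not normalized; STARsolo 2.7.9a and GRCh38 are named in the submitters' processing notes. No source used here states the annotation, the strand setting or how barcodes were chosen. Cells had at least 500 genes and a mitochondrial share (13 genes) of at most 20%; no doublet caller was run, and dropping the largest 5% of cells was an alternative. Counts were summed per library, since cells are not replicates, and tested with edgeR 4.0.16 in R 4.3.3 (quasi-likelihood, TMM, filterByExpr, group as the only term, all 6 libraries in 1 fit, Benjamini-Hochberg over 16763 genes, threshold 0.05). The common biological coefficient of variation was 0.288. DESeq2 1.42.0 was an alternative. Standard errors came from the F statistic. The test was checked on simulated data.

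The 10 genes and the lists were chosen with earlier results of these data known, so no list was tested as a set. From each other list the text names up to 3 genes that were called, averaged 20 CPM or more and had groups that do not overlap, taken by smallest adjusted p, or else the gene with the smallest adjusted p. ERN1, EIF2AK3, ATF6, ATF4 and DDIT3 are always named. TRIB3 and ATF3, under that level, are named to complete the calls of the PERK branch under TSA. P-values are two-sided. Positions are from GENCODE 29, and promoters from RefSeq (GRCh38.p14), matched by symbol for 10 of 10 genes.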

Additional observations from a re-analysis of the deposited data

Results flagged for a closer look

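Barcodes under 500 genes did not enter the main comparisons. Their summed level of the 10 genes was also above DMSO in TSA and E6R. They come from the same libraries as the kept cells, so this is not separate evidence. Most of the sum came again from HSPA5, HSP90B1, CALR and PDIA4. Scaled to plain UMI totals, the 10 genes summed to 6566 and 5682 CPM in TSA and to 4048 and 4654 CPM in E6R, against 2877 and 3040 CPM in DMSO (replicates 1 and 2). In the kept cells the same sums were 8021 and 7090 CPM in TSA, 4678 and 5158 CPM in E6R and 3540 and 3491 CPM in DMSO. Not every gene followed the sum: in these barcodes XBP1 was at 22.2 and 24.95 CPM, SDF2L1 at 62.9 and 45.2 CPM and HERPUD1 at 40.3 and 36.3 CPM in TSA, each below both DMSO libraries (54.6 and 64.7, 115 and 106, and 49.3 and 70.4 CPM).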

How the results depend on the processing

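The 17 alternatives were 15 planned ones and 2 chosen after the data were seen (no mitochondrial genes; barcodes under 500 genes). In TSA against DMSO, leaving out a library gave 3 to 6 of the 10 genes called and 1416 to 6028 of all genes; barcodes under 500 genes gave 2960. In E6R against DMSO, 2 of the 10 were called by DESeq2 and 3 without the low-count filter, among 338 and 1095 genes; 19 genes were called with a replicate block, 1 without mitochondrial genes, and 0 to 3 when a library was left out. In E6R against TSA, leaving out a library gave 2 to 5 of the 10 and 2628 to 6385 genes, cells thinned to 1000 UMIs gave 4142 genes and barcodes under 500 genes 3669. Causes were not tested.

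The replicate block, which shared numbers between groups allow, gave 6, 0 and 8 of the 10 genes called and 6047, 19 and 7567 genes in the 3 comparisons; HSP90B1 (adjusted p = 0.0236) and SDF2L1 (0.0325) were added in E6R against TSA. Same-numbered libraries correlated in their deviations by 0.242 (TSA, DMSO), 0.564 (E6R, DMSO) and 0.166 (E6R, TSA) over 7515 genes, but no label says what a number marks and 2 numbers are too few to establish a pairing, so the libraries were not treated as paired.

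Signs turned only in log2 fold changes that were not called. In TSA against DMSO, leaving out a library gave DNAJB9 -0.019 to 0.74, HERPUD1 -0.17 to 0.035 and MANF -0.29 to 0.30; MANF was 0.0087 with thinned cells, 0.055 without the largest cells, 0.045 at 10% mitochondrial UMIs and 0.18 in barcodes under 500 genes. In E6R against DMSO, the ranges were -0.089 to 0.51 for SDF2L1, -0.21 to 0.20 for HERPUD1 and -0.17 to 0.12 for CRELD2; SDF2L1 was -0.099 in barcodes under 500 genes, and HERPUD1 and CRELD2 were 0.096 and 0.052 without the low-count filter. In E6R against TSA, HERPUD1 ranged from -0.16 to 0.23 and was 0.17 by total UMI counts, 0.042 by DESeq2, 0.25 without the low-count filter, 0.013 with library sums thinned, 0.026 at 1000 genes a cell, 0.0054 at 10% mitochondrial UMIs, 0.088 without mitochondrial genes and 0.095 in barcodes under 500 genes.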
